A study of Mus musculus with 13 samples.

Results

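Polyadenylated RNA of 4T1 tumors taken after 7 cycles of cyclophosphamide (CPA) was compared with that of tumors taken after 4 cycles. The comparison covers 5 of the 13 RNA pools of the study, 2 pools after 7 cycles and 3 pools after 4 cycles, chosen by their sample labels and not by any measured value. All 24170 genes with a gene symbol in the deposited table entered it. 4T1 is a transplantable mammary carcinoma line of BALB/c origin, and the tumors grew at the orthotopic site, the fat pad of the mammary gland, in immunocompetent female mice of that strain. Both groups were given CPA at 130 mg/kg into the peritoneum every 6 days, and each pool holds RNA of 2 to 3 tumors. The mice were 14 to 15 weeks of age after 7 cycles and 12 to 13 weeks after 4 cycles, so cycle number and age cannot be told apart. Vehicle pools (3, from mice of 10 to 11 weeks injected without drug) and pools after 2 cycles (3, of the same age) are used as background for single genes. The remaining 2 pools, from tumors regrowing for 18 days after 4 cycles in mice of 14 to 15 weeks, enter only the fit over all 13 pools.

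CPA is an alkylating prodrug that is activated by cytochrome P450 enzymes in the liver and crosslinks DNA. Given on a metronomic schedule, it damages dividing tumor cells and can also act on the immune cells of the tumor. Type I interferons switch on interferon-stimulated genes such as Isg15 and Rsad2, while NK cells and cytotoxic T cells kill target cells with perforin, which opens the membrane, and granzymes, the proteases that enter through it. Bulk tumor RNA mixes carcinoma cells with immune, stromal and neighboring tissue cells, and in such samples fewer cells of a type and less RNA per cell cannot be told apart.

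The deposited table gives 1 FPKM value (fragments per kilobase of gene, scaled to library size) per gene and group, which is the authors' mean over the pools of the group. Of the 24170 genes, 11440 had a mean of both group values of at least 1 FPKM and were compared, while 4646 genes stood at 0 in both groups. The log2 ratio given for a group comparison is log2((FPKM after 7 cycles + 0.1)/(FPKM after 4 cycles + 0.1)), so that a value of 1 is a 2-fold difference. The FPKM of single pools was recovered from the printed digits of the group values, since a group value is a mean of whole read numbers divided by the scaling number of each pool. This was solved for 11435 compared genes after 7 cycles and for 10945 after 4 cycles, and mostly failed for genes of very high expression. Pools carry no label in these values and are lettered by decreasing scaling number (60501929 and 42192838 after 7 cycles, and 45926216, 41818867 and 40983763 after 4 cycles). Reads recovered in the solved genes numbered 27389839 and 19269246 in 7-cycle pools A and B, and 14400922, 12922717 and 12950666 in 4-cycle pools A, B and C. These totals cover 11435 genes after 7 cycles and 10945 after 4 cycles, so they do not compare depth between the groups. All 5 scaling numbers are larger than the average depth that the study's methods give for tumor libraries, and the counting unit behind them was not stated, so a recovered read may not be a read pair and 1 fragment may be counted more than once. A single read in a gene of 1 kb was worth 0.0165 to 0.0244 FPKM in these pools.

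The groups differed by little over most genes. The median log2 ratio was −0.06, 41.6% of the compared genes had a ratio above 0, and the 5% and 95% quantiles were −0.60 and 0.48. At least 2-fold higher after 7 cycles were 138 genes (1.21% of those compared), and at least 2-fold lower were 109 (0.953%), so that 55.9% of the genes past 2-fold were higher. That share was 41.7% (121 higher and 169 lower) when the groups were rescaled to the same FPKM sum, which moved the median log2 ratio to −0.17. Genes just inside the threshold were Cxxc5 (log2 ratio 1.001), Gabrp (1.009) and Gpr35 (−1.007), and just outside it lay Spa17 (0.996), Itga9 (−0.987) and Cmklr1 (−0.997). Symbols of short RNAs (Mir, Snor and Scarna genes) made up 16 of the 138 and 27 of the 109.

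The 7-cycle pools stood further apart than the 4-cycle pools did. Over genes, the SD of the log2 difference between 7-cycle pools A and B was 0.52, against 0.30 to 0.36 between pairs of 4-cycle pools. Pool B differed from the 4-cycle pools by an SD of 0.59 to 0.67 and pool A by 0.40 to 0.42. Both 7-cycle pools lay above all 3 4-cycle pools in 1657 of the 10945 genes with solved pools (15.1%) and below them in 2731 (25.0%). Of the genes past 2-fold, 88 of 138 higher and 82 of 108 lower genes with solved pools had pools that did not overlap (0.804% and 0.749% of the solved genes). Without 7-cycle pool B, 64 genes were at least 2-fold higher and 124 lower, and without pool A these counts were 192 and 241.

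No gene passed the test between the 5 pools alone as first fitted. With limma on log2(FPKM + 0.1) of the 5 pools and Benjamini-Hochberg adjustment over 10945 genes, 0 genes were higher and 0 lower at an adjusted p below 0.05. The smallest adjusted p was 0.066, and 787 genes were higher and 1433 lower at an unadjusted p below 0.05. limma-voom on the recovered reads also called 0 genes in each direction, whereas limma with the spread fitted on reads called 19 higher and 72 lower, at a smallest adjusted p of 0.0314. A limma fit over all 13 pools, which takes the spread from all 5 groups of the study, called 92 genes higher (0.873% of 10536 tested) and 292 lower (2.77%) for 7 against 4 cycles. Of these 384 calls, 13 were made without 4-cycle pool A, 194 without 4-cycle pool B and 45 without 4-cycle pool C. Leaving out either 7-cycle pool leaves 1 pool in that group, so differences are given for those fits. Over the 92 higher genes the median log2 difference was 0.72 without 7-cycle pool A and 0.59 without pool B, against 0.67 with all pools. Over the 292 lower genes it was −0.80, −0.60 and −0.71. These genes were chosen with all pools in the fit, so a kept direction is no separate support, here or in the lists below. Adjusted p-values measure the spread between pools and not between animals.

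**Figure D1:**
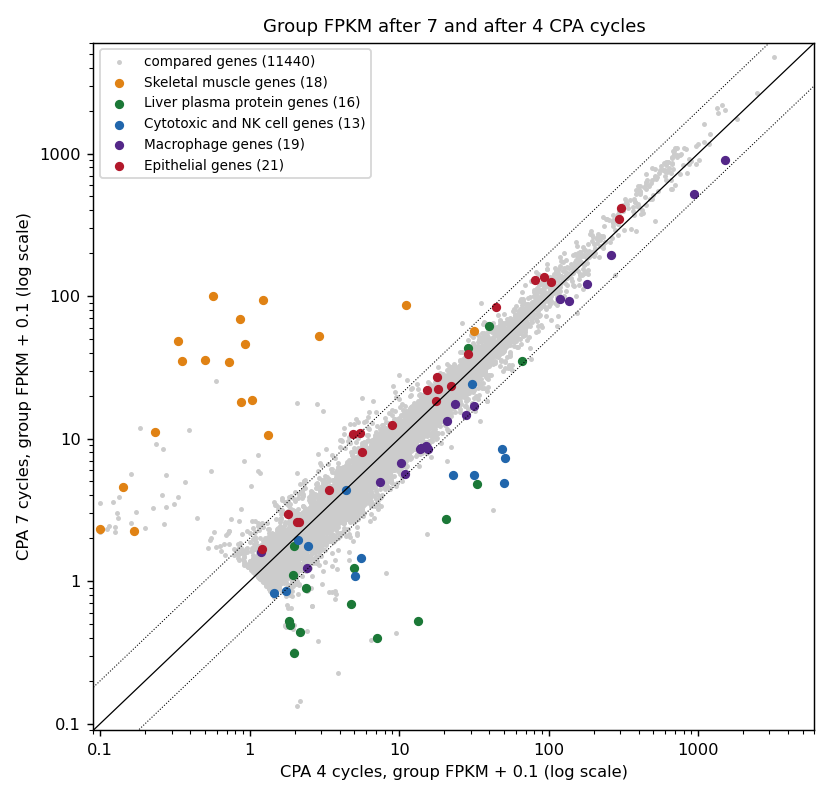
Each point is 1 of the 11440 compared genes, placed by its group FPKM + 0.1 after 4 cycles (horizontal axis, log scale) and after 7 cycles (vertical axis, log scale), with the line of equal values drawn solid and the 2-fold lines dotted. Of the skeletal muscle genes 17 of 18 lie above the upper dotted line, 11 of 16 liver plasma protein genes and 8 of 13 cytotoxic and NK cell genes lie below the lower one, and macrophage genes lie between the solid and the lower dotted line, apart from Cd163.

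Skeletal muscle genes held the largest differences upward, and these came from a single pool. Of 18 compared muscle genes, 17 were at least 2-fold higher after 7 cycles (1.21% of all compared genes were) and 18 had a ratio above 0, with a median log2 ratio of 5.28. Tnnc2, the calcium sensor of fast muscle fibers, had 1.60 and 198 FPKM in 7-cycle pools A and B, against 1.20, 0.0691 and 0.141 FPKM in 4-cycle pools A, B and C. Acta1, skeletal muscle actin, had 1.96 and 185 FPKM after 7 cycles, against 2.87, 0.426 and 0.0777 FPKM after 4 cycles. Ckm, muscle creatine kinase, had 1.26 and 137 FPKM after 7 cycles, against 2.12, 0.101 and 0.0690 FPKM after 4 cycles. Pool A lay within or close to the range of the 4-cycle pools for all 3 genes, and pool B lay far above it.

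Summed over the 18 genes, the list came to 67.1 and 1380.5 FPKM in 7-cycle pools A and B, against 59.9, 49.0 and 51.5 FPKM in the 4-cycle pools. The sum was not spread evenly over the members. Their median log2(FPKM + 0.1) was 0.34 and 6.13 after 7 cycles, against 0.11, −1.69 and −1.95 after 4 cycles. Vehicle pools were not free of muscle RNA, with Tnnc2 at 1.33, 16.7 and 8.60 FPKM. The genes of the largest ratios were Tnnc2 (log2 ratio 7.46), the calcium buffer Pvalb (7.19), the fast myosin Myh4 (6.62), Ckm (6.33), Acta1 (6.26), the calcium pump Atp2a1 (6.15), Pgam2 (6.01), Mylpf (5.64), Actn3 (5.58), Myl1 (5.56), Tcap (5.42), Myh1 (5.26), Eef1a2 (5.13) and Casq1 (5.01). Of Myh4, 18.9% of 50-base stretches also occur in transcripts of its neighbors, so reads of the fast myosins are uncertain between them. Over the 13 pools 1 of 18 tested muscle genes was called higher (0.873% of all tested genes were). Only Mb, myoglobin, was called over the 13 pools, at 2.85 and 18.0 FPKM after 7 cycles against 0.730, 1.62 and 1.33 FPKM after 4 cycles (limma adjusted p = 0.0474, and 0.00732 to 0.422 over the 8 other settings).

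Genes of the cornified epithelium, the keratinized layer of skin, were also higher after 7 cycles in 4 of 5 compared members, of 20 in the list. At least 2-fold higher were 3 (1.21% of all compared genes were), and the median log2 ratio was 1.29. Pools did not overlap in 3 of the 5, all upward (15.1% of all solved genes). The suprabasal keratin Krt1 had 7.57 and 0.0291 FPKM in 7-cycle pools A and B, against 0.0712, 0.00977 and 0.0199 FPKM in the 4-cycle pools. Its partner Krt10 had 12.5 and 1.23 FPKM after 7 cycles, against 0.770, 0.594 and 1.08 FPKM after 4 cycles. Here pool A was the high one, the reverse of the muscle genes. Calm4, a calmodulin-like gene of differentiating keratinocytes, had 6.77 and 0.104 FPKM after 7 cycles and was listed at 0 in all 3 4-cycle pools, which puts it among the 15 largest ratios on the scale with 0.1 added. Lgals7, the epithelial lectin galectin-7, differed from these in being high in both 7-cycle pools, with 53.3 and 76.0 FPKM against 17.7, 34.5 and 27.0 FPKM after 4 cycles. Its level set the sum of the list, 76.0 and 79.8 FPKM after 7 cycles and 20.3, 37.1 and 30.1 FPKM after 4 cycles. Defining genes of this layer were otherwise low, with Lor at 1.28 FPKM after 7 cycles and 0.00457 FPKM after 4 cycles as group values.

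Liver plasma protein genes held the largest differences downward, and these lay between the 4-cycle pools. Of 16 compared members, 11 were at least 2-fold lower after 7 cycles (0.953% of all compared genes were) and 14 had a ratio below 0, with a median log2 ratio of −1.97, but only 4 had pools that did not overlap (25.0% of all solved genes). Alb, serum albumin, had 3.43 and 6.03 FPKM after 7 cycles, against 2.81, 81.1 and 15.8 FPKM in 4-cycle pools A, B and C. Mup3, a major urinary protein made in the liver, had 0.383 and 0.470 FPKM after 7 cycles, against 1.01, 32.5 and 6.11 FPKM after 4 cycles. In both genes pool B was the highest of the 4-cycle pools and pool C the next, and 4-cycle pool A was within or near the range of the 7-cycle pools.

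Mup genes were 7 of the 109 genes past 2-fold downward. They share sequence, with 15.6% of the 50-base stretches of Mup3 and 50.5% of those of Mup20 also found in other Mup transcripts, so the counts of single Mup genes are uncertain. Other plasma protein genes were Apoa2 (log2 ratio −2.90), Alb (−2.79), Ttr (−2.77) and Serpina1a (−2.66). Against the rest of the list, Hp and Saa3, acute phase genes that cells other than hepatocytes also express, had ratios of 0.62 and 0.58. Summed over the 16 genes, the list came to 131 and 176 FPKM after 7 cycles, against 140, 336 and 217 FPKM after 4 cycles.

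**Figure D2:**
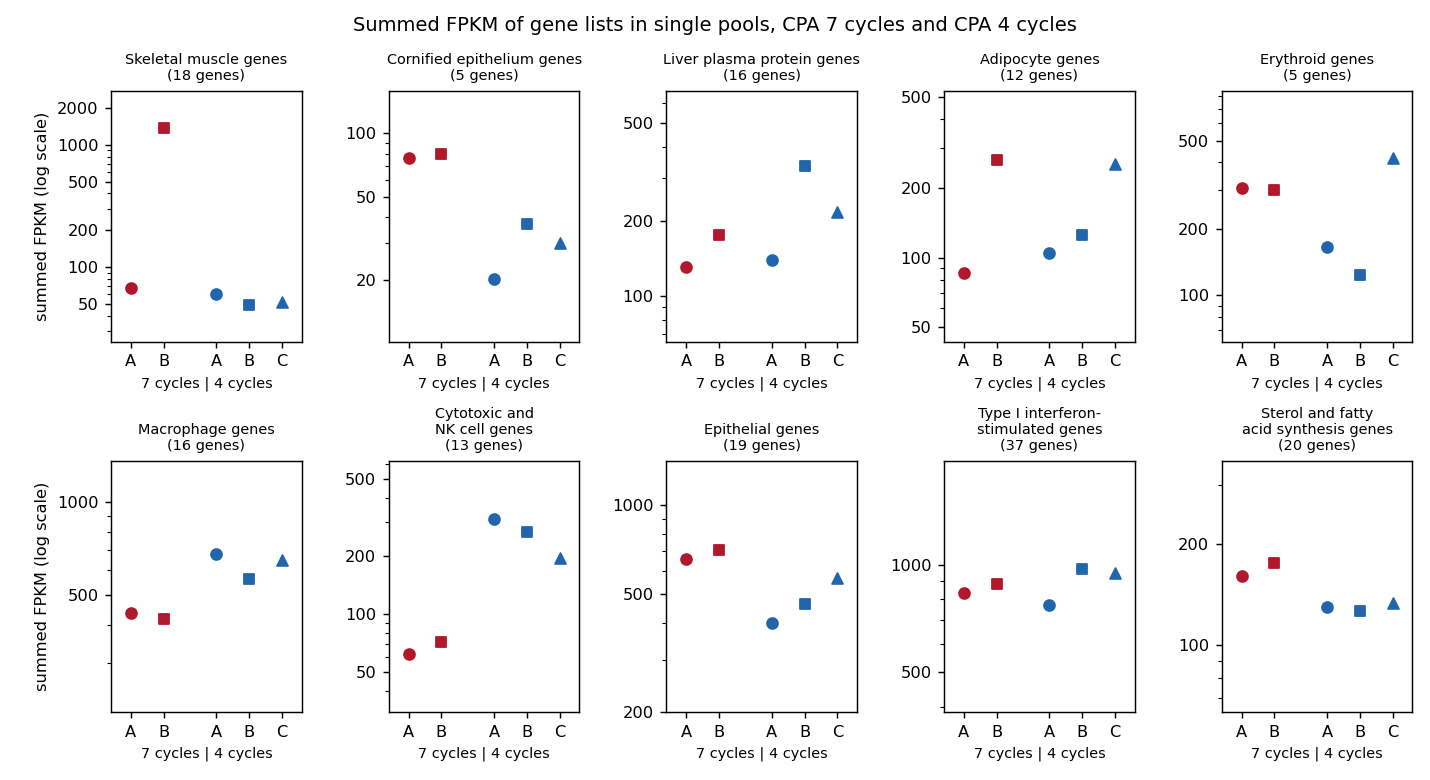
Each panel sums the FPKM of the members of 1 gene list in each recovered pool (vertical axis, log scale), with 7-cycle pools A and B in red left of 4-cycle pools A, B and C in blue. The muscle sum is high in 7-cycle pool B alone (1380.5 FPKM) and the liver sum in 4-cycle pool B (336 FPKM), while the cytotoxic, macrophage, epithelial and sterol sums separate the groups with no overlap.

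Perforin and the granzymes were lower in both 7-cycle pools than in every 4-cycle pool. Of 13 compared cytotoxic and NK cell genes, 8 were at least 2-fold lower (0.953% of all compared genes were) and 13 had a ratio below 0, with a median log2 ratio of −1.92. In 10 of the 13 the 7-cycle pools were below all 4-cycle pools (25.0% of all solved genes). The 8 were Prf1, Gzma, Gzmb, Gzmc, Gzmd, Gzme, Gzmf and Gzmg. Gzmf, a granzyme of activated mouse killer cells (mm9 chr14:56824099-56830244), had 5.36 and 4.25 FPKM after 7 cycles, against 64.8, 55.1 and 29.4 FPKM after 4 cycles. The 2 groups of pools were far apart, and the lowest 4-cycle pool, C, was still above both 7-cycle pools. The log2 difference over pools was −3.28 ± 0.32 (SE, n = 2 and 3 pools), with a limma adjusted p of 0.0660 over the 5 pools.

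Prf1, perforin (mm9 chr10:60760583-60767011), had 1.05 and 0.935 FPKM after 7 cycles, against 6.03, 5.74 and 3.14 FPKM after 4 cycles. Gzmb, the granzyme that starts apoptosis of the target cell (mm9 chr14:56877694-56881097), had 1.32 and 1.41 FPKM after 7 cycles, against 6.38, 6.89 and 3.05 FPKM after 4 cycles. For both genes 4-cycle pool C was the nearest to the 7-cycle pools. Their log2 differences were −2.16 ± 0.28 for Prf1 and −1.84 ± 0.33 for Gzmb (SE), with limma adjusted p-values of 0.0740 and 0.0763 over the 5 pools.

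Gzmg had 7.14 and 7.32 FPKM after 7 cycles, against 62.3, 56.1 and 34.5 FPKM after 4 cycles, and Gzmd had 6.46 and 10.4 FPKM against 56.9, 54.1 and 35.0 FPKM. Gzmc, Gzmd, Gzme, Gzmf and Gzmg lie side by side on mm9 chromosome 14 and are near copies in part, since 21.9% of the 50-base stretches of Gzmd, 20.6% of Gzme, 19.8% of Gzmg, 7.36% of Gzmf and 4.14% of Gzmc occur in another granzyme, so reads may be split between them. No stretch of Prf1 or Gzmb was shared. Over the 13 pools, Prf1 and Gzmb to Gzmg, 7 of 13 tested members, were called lower (2.77% of all tested genes were), with limma adjusted p-values of 0.00632 for Prf1 (0.000630 to 0.106 over the 8 other settings), 0.00910 for Gzmf (0.00425 to 0.161) and 0.0290 for Gzmb (0.0189 to 0.243). With 1 7-cycle pool left, the median log2 difference over the 7 was −2.77 without pool B and −2.19 without pool A, against −2.52 with all pools. Of the 7, 5 were called without 4-cycle pool A, 6 without 4-cycle pool B, and all 7 without 4-cycle pool C.

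The level after 7 cycles lay near that of vehicle tumors. Gzmf had 12.1, 7.07 and 3.39 FPKM in the vehicle pools and 91.4, 69.5 and 57.5 FPKM after 2 cycles, and Prf1 had 1.98, 1.29 and 1.33 FPKM in vehicle pools and 11.4, 10.6 and 9.39 FPKM after 2 cycles. The 7-cycle pools lay within the vehicle range for Gzmf and below it for Prf1. The remaining members of the list were nearer to equal. Ccl5, a chemokine of T and NK cells, had a log2 ratio of −0.34, the NK receptor gene Klrk1 −0.82, and Nkg7, a granule membrane gene of killer cells, −0.01 with 4.11 and 4.37 FPKM after 7 cycles against 4.15, 3.32 and 5.34 FPKM after 4 cycles. Ifng and Ncr1, which encode interferon gamma and an NK receptor, were below the 1 FPKM minimum at 0.171 and 0.0670 FPKM after 7 cycles, against 0.473 and 0.542 FPKM after 4 cycles.

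T cell genes were nearer to equal. Of 17 T cell genes 5 were compared, all with a ratio below 0 and none past 2-fold, with a median log2 ratio of −0.27, and in none of them did the pools separate. Cd8a, the coreceptor of cytotoxic T cells, had 1.57 and 0.992 FPKM after 7 cycles, against 1.73, 1.28 and 2.62 FPKM after 4 cycles, and Cd3g, a chain of the T cell receptor complex, had 2.18 and 2.66 FPKM against 1.85, 1.99 and 3.74 FPKM. The groups overlapped in both. Of 6 checkpoint and regulatory genes, all had a ratio below 0 (median −0.70) and in 4 the 7-cycle pools were below all 4-cycle pools (25.0% of all solved genes). Over the 13 pools 1 of the 6 was called lower (2.77% of all tested genes were). Havcr2, the checkpoint receptor TIM-3, had 2.15 and 1.65 FPKM after 7 cycles, against 3.63, 3.14 and 4.54 FPKM after 4 cycles, and was called lower over the 13 pools (limma adjusted p = 0.0229, and 0.0144 to 0.256 over the 8 other settings). Pdcd1, the receptor PD-1, had 1.27 and 0.933 FPKM against 2.35, 1.47 and 2.44 FPKM, and Cd274, its ligand, 5.61 and 5.67 FPKM against 6.91, 9.45 and 8.46 FPKM. None of the 13 B and plasma cell genes reached the minimum, with Cd79a at 0.135 FPKM after 7 cycles and 0.177 FPKM after 4 cycles.

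**Figure D3:**
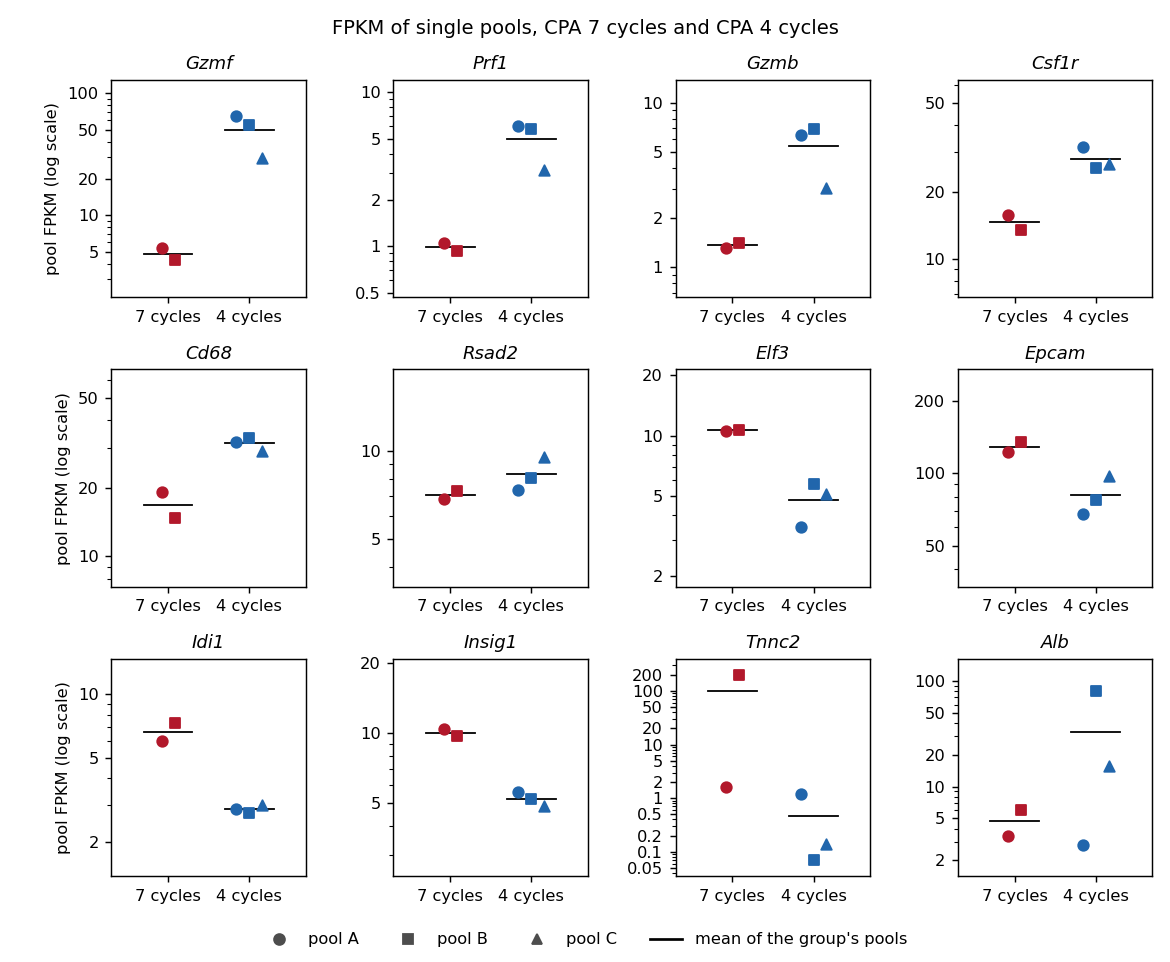
Each panel gives the FPKM of 1 gene (vertical axis, log scale) in 7-cycle pools A and B (red) left of 4-cycle pools A, B and C (blue), with the marker shape for the pool letter and a bar for the mean of the group's pools. Gzmf, Prf1, Gzmb, Csf1r, Cd68, Elf3, Epcam, Idi1 and Insig1 separate the groups, Rsad2 does so with its nearest pools at 7.33 and 7.34 FPKM, and the differences of Tnnc2 and Alb rest on 7-cycle pool B and on 4-cycle pools B and C.

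Macrophage genes were lower after 7 cycles across nearly the whole list, with none past 2-fold. Of 19 compared members 18 had a ratio below 0, with a median log2 ratio of −0.69, and in 12 of 16 with solved pools the 7-cycle pools were below all 4-cycle pools (25.0% of all solved genes). Csf1r, the receptor for the macrophage growth factor CSF1, had 15.7 and 13.5 FPKM after 7 cycles, against 31.7, 25.6 and 26.8 FPKM after 4 cycles. Cd68, a lysosomal glycoprotein of macrophages, had 19.1 and 14.7 FPKM after 7 cycles, against 31.9, 33.3 and 29.1 FPKM after 4 cycles. Emr1, which encodes the surface marker F4/80, had 5.72 and 5.42 FPKM after 7 cycles, against 11.6, 8.19 and 12.6 FPKM after 4 cycles. In all 3 genes the highest 7-cycle pool was below the lowest 4-cycle pool. The log2 differences were −0.93 ± 0.13 for Csf1r, −0.90 ± 0.14 for Cd68 and −0.92 ± 0.19 for Emr1 (SE, n = 2 and 3 pools), with limma adjusted p-values of 0.0740, 0.0749 and 0.0837 over the 5 pools.

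Over the 13 pools, 8 of 16 tested macrophage genes were called lower (2.77% of all tested genes were), namely Cd68, Csf1r, Itgam, Emr1, Ccr2, Mertk, Fcgr1 and Msr1. Their limma adjusted p-values ran from 0.0167 for Csf1r (0.0104 to 0.216 over the 8 other settings) to 0.0463 for Mertk (0.0198 to 0.413), and none of the 8 was called without 7-cycle pool B, 4-cycle pool A or 4-cycle pool C. With 1 7-cycle pool left, the median log2 difference over the 8 was −0.70 without pool B and −0.91 without pool A, against −0.84 with all pools. Itgam, an integrin of myeloid cells, had 9.25 and 7.48 FPKM after 7 cycles, against 15.5, 13.6 and 11.7 FPKM after 4 cycles. Mertk, a receptor for the uptake of dying cells, had 1.43 and 0.820 FPKM against 2.66, 2.04 and 2.20 FPKM, and Mrc1, the mannose receptor, 7.57 and 9.20 FPKM against 19.6, 9.74 and 17.2 FPKM. Lyz2, lysozyme, had group values of 516 FPKM after 7 cycles and 933 FPKM after 4 cycles, with the 4-cycle pools not solved. The exception was Cd163, a hemoglobin scavenger receptor, with a log2 ratio of 0.42 and overlapping pools.

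The 16 solved members summed to 435 and 416 FPKM after 7 cycles, against 679.6, 561 and 650.2 FPKM after 4 cycles. Among 5 compared dendritic cell genes 4 had a ratio below 0 (median −0.58), with Itgax at 5.65 and 4.98 FPKM after 7 cycles against 7.06, 7.54 and 9.46 FPKM after 4 cycles. Ccl22, a chemokine of mature dendritic cells, was past 2-fold (log2 ratio −1.09), as 0.953% of all compared genes were downward. Of 11 tested complement genes, 2 were called lower over the 13 pools (2.77% of all tested genes were). Complement genes, of which C1qa, C1qb and C1qc are also in the macrophage list, had a ratio below 0 in 13 of 14 compared members (median −0.51), and Cfp, properdin, and C3ar1, the C3a receptor, were called lower over the 13 pools (limma adjusted p = 0.0300 for Cfp and 0.0300 for C3ar1, and 0.0195 to 0.189 and 0.0201 to 0.298 over the 8 other settings).

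Neutrophil genes went both ways. Of 17 compared genes of mature neutrophils, 4 were at least 2-fold higher (1.21% of all genes were), 9 had a ratio above 0 and 8 below, with a median log2 ratio of 0.43. S100a8, a subunit of calprotectin, had 156 and 244 FPKM after 7 cycles, against 140, 131 and 109 FPKM after 4 cycles. The stefin genes BC100530, Stfa2 and Stfa2l1, cysteine protease inhibitors of mouse neutrophils, were past 2-fold, with BC100530 at 21.4 and 25.0 FPKM against 12.6, 7.81 and 6.53 FPKM, and share 15.9% to 33.5% of their 50-base stretches with other stefin genes. The receptor gene Csf3r overlapped between groups (4.08 and 3.17 FPKM after 7 cycles against 3.54, 4.41 and 3.88 FPKM after 4 cycles), and Mmp9 was lower (17.2 and 18.4 FPKM against 37.0, 22.5 and 32.8 FPKM).

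Granule genes made by developing granulocytes had ratios above 0 in 12 of 13 compared members (median 0.50), none past 2-fold, and 7-cycle pool B was the high one. Camp, the cathelicidin of secondary granules, had 14.7 and 30.4 FPKM after 7 cycles, against 14.1, 14.6 and 7.66 FPKM after 4 cycles. Elane, neutrophil elastase, had 1.06 and 7.88 FPKM after 7 cycles, against 2.91, 3.66 and 2.17 FPKM after 4 cycles, and Mpo, myeloperoxidase, had 0.656 and 6.53 FPKM against 2.63, 3.34 and 1.54 FPKM. For Elane and Mpo the 2 pools of 7 cycles lay on opposite sides of all 4-cycle pools. The 12 solved members summed to 70.8 and 149.6 FPKM after 7 cycles, against 81.6, 93.0 and 55.4 FPKM after 4 cycles, and no member was called by either fit.

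Type I interferon-stimulated genes were close to equal between the groups. All 40 were compared, none was past 2-fold, 11 had a ratio above 0 and 29 below, and the median log2 ratio was −0.16 (that of all compared genes was −0.06). Pools did not overlap in 1 gene upward and 14 downward of 37 with solved pools, beside 15.1% upward and 25.0% downward of all solved genes. The promoters of 4 members are shown for the core of the interferon-stimulated response element, the site of the interferon-activated factor complex. It was taken as GAAA and GAAA with 2 bases of any kind between them, searched on both strands in the 250 bases before the gene start (RefSeq, GRCm38.p6). Those letters occur in 2.98% of 32851 promoters, in 12 of 31 type I genes with a sequence and in 10 of 13 interferon gamma genes with one. The first share is per promoter, while a gene counted if any of its promoters held the letters, so they are not counted alike. Capitals mark them within 60 bases of Rsad2 (chr12:26456533-26456592, minus strand), Isg15 (chr4:156200857-156200916, minus), Ifit1 (chr19:34640765-34640824, plus) and Cxcl10 (chr5:92349063-92349122, minus), read 5′ to 3′ along the gene.
Rsad2: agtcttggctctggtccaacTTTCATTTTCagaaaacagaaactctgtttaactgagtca
Isg15: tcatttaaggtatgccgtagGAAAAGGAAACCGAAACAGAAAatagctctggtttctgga
Ifit1: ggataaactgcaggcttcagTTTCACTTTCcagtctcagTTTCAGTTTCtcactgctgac
Cxcl10: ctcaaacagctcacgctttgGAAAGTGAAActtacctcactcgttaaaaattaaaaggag
Isg15 holds 3 overlapping copies and Ifit1 holds 2, on the opposite strand, while Rsad2 and Cxcl10 hold 1 each.

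Rsad2, which encodes the antiviral enzyme viperin, had 6.84 and 7.33 FPKM after 7 cycles, against 7.34, 8.11 and 9.55 FPKM after 4 cycles and 0.965, 1.06 and 0.967 FPKM in vehicle pools. Isg15, a ubiquitin-like protein, had 74.2 and 95.6 FPKM after 7 cycles, against 72.2, 84.8 and 89.4 FPKM after 4 cycles. Ifit1, which binds viral RNA, had 14.4 and 13.1 FPKM after 7 cycles, against 13.1, 15.1 and 15.0 FPKM after 4 cycles. The 7-cycle and 4-cycle pools of these genes overlapped or nearly touched, and all of them were above the vehicle pools. Their log2 differences were −0.22 ± 0.13 for Rsad2, 0.04 ± 0.16 for Isg15 and −0.06 ± 0.11 for Ifit1 (SE, n = 2 and 3 pools), with limma adjusted p-values of 0.377, 0.899 and 0.768 over the 5 pools.

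The chemokine gene Cxcl10 was the lowest of the list, with 10.8 and 12.4 FPKM after 7 cycles against 16.3, 21.1 and 14.0 FPKM after 4 cycles (log2 ratio −0.56), and Oasl1, a 2′-5′ oligoadenylate synthetase-like gene, had 16.5 and 16.1 FPKM against 20.8, 22.8 and 23.4 FPKM. No type I gene was called in either fit. The 37 solved members summed to 830.1 and 881 FPKM after 7 cycles and to 773, 974 and 948 FPKM after 4 cycles.

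Interferon gamma responsive genes had ratios below 0 in 18 of 19 compared members, with a median log2 ratio of −0.39 and none past 2-fold, and pools did not overlap in 6 of 19, all downward (25.0% of all solved genes). Cxcl9, a chemokine that draws T cells, had 7.20 and 7.66 FPKM after 7 cycles, against 7.37, 14.1 and 10.0 FPKM after 4 cycles. Gbp2, a guanylate-binding protein, had 51.3 and 43.6 FPKM against 48.1, 73.2 and 55.2 FPKM. Over the 13 pools 1 of 16 tested members was called lower (2.77% of all tested genes were). Irf8, a transcription factor of myeloid cells, separated the groups with 12.4 and 13.4 FPKM after 7 cycles against 19.3, 18.7 and 18.4 FPKM after 4 cycles and was called lower over the 13 pools (limma adjusted p = 0.0345, and 0.0245 to 0.230 over the 8 other settings). Antigen presentation genes were near equal. The median log2 ratio was 0.03 over 17 MHC class I genes and −0.04 over 10 MHC class II genes, with H2-K1 at 23.4 and 26.0 FPKM after 7 cycles against 16.6, 20.8 and 14.6 FPKM after 4 cycles, and Ctss, a protease of class II processing, at 141 FPKM against 278 FPKM as group values.

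**Figure D4:**
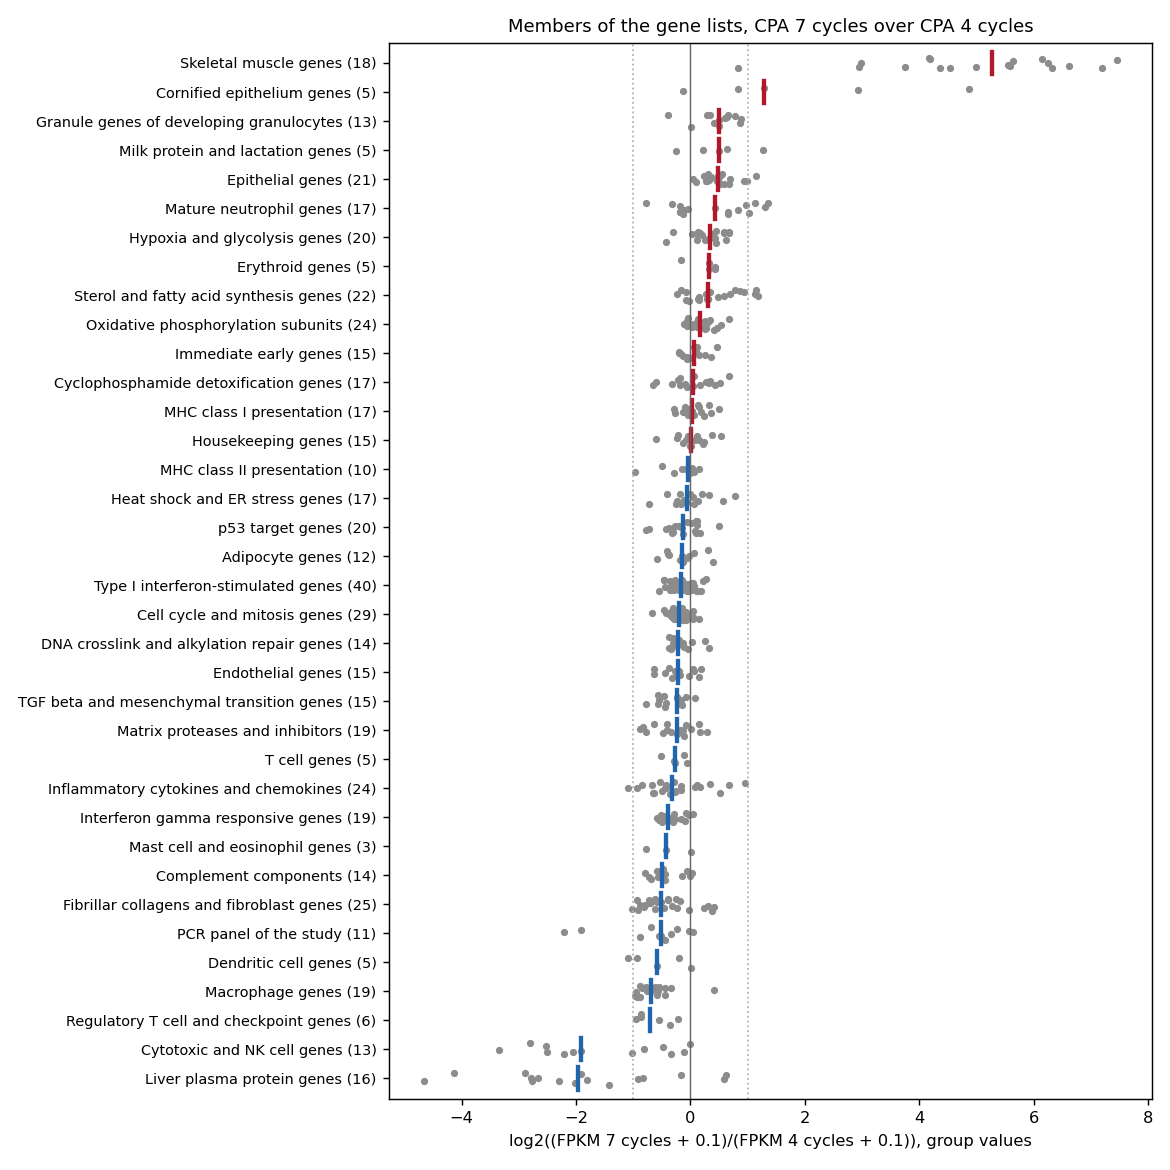
Each point is a compared member of a gene list, placed by its log2 ratio of group FPKM + 0.1 for 7 over 4 cycles (horizontal axis), with the number of compared members in parentheses, a bar for the median of the list (red above 0, blue below) and dotted lines at 2-fold. Medians run from 5.28 for the skeletal muscle genes to −1.97 for the liver plasma protein genes, and all 21 epithelial genes lie above 0.

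The PCR panel of the study, 14 genes that its methods name as interferon-stimulated genes and immune marker genes, had 11 members compared. Of these 10 had a ratio below 0 and 2 were at least 2-fold lower, Prf1 and Gzmb. Cxcl11, a chemokine induced by interferon, had a log2 ratio of 0.04 and Igtp, an interferon-induced GTPase, one of −0.02. Ncr1, Ifng and Foxp3 were below the minimum, with Foxp3 listed at 0 after 7 cycles and at 0.0258 FPKM after 4 cycles.

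Epithelial genes were higher after 7 cycles. All 21 compared members had a ratio above 0 (41.6% of all compared genes did), with a median log2 ratio of 0.48. Past 2-fold was 1 member (1.21% of all compared genes were), and 13 of 19 with solved pools did not overlap (15.1% of all solved genes). Elf3, an epithelial transcription factor (mm9 chr1:137150150-137155049), had 10.6 and 10.7 FPKM after 7 cycles, against 3.52, 5.70 and 5.11 FPKM after 4 cycles and 2.24, 2.15 and 2.08 FPKM in vehicle pools. Epcam, the epithelial adhesion molecule (mm9 chr17:88035318-88050467), had 123 and 135 FPKM after 7 cycles, against 67.8, 77.7 and 97.8 FPKM after 4 cycles. Both 7-cycle pools were above every 4-cycle pool in both genes. The log2 difference was 1.17 ± 0.20 for Elf3 and 0.69 ± 0.17 for Epcam (SE, n = 2 and 3 pools), with limma adjusted p-values of 0.0763 and 0.113 over the 5 pools. Over the 13 pools 2 of 19 tested members were called higher, Elf3 and Epcam (0.873% of all tested genes were). Both were called higher over the 13 pools, at limma adjusted p-values of 0.0300 (0.0176 to 0.256 over the 8 other settings) and 0.0370 (0.0255 to 0.315). Neither was called without 4-cycle pool A, and 1 of them was called without 4-cycle pool B and 1 without 4-cycle pool C. With 1 7-cycle pool left, their median log2 difference was 0.89 without pool B and 0.96 without pool A, against 0.93 with all pools.

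The basal keratin Krt14 had 74.3 and 93.8 FPKM after 7 cycles, against 30.0, 45.0 and 57.2 FPKM after 4 cycles, and shares 14.4% of its 50-base stretches with Krt16 and Krt17. Cldn4, a tight junction claudin, had 138 and 135 FPKM against 82.8, 95.8 and 101 FPKM, and Muc1, a membrane mucin, 2.98 and 2.71 FPKM against 1.49, 1.71 and 1.94 FPKM. Cdh1, E-cadherin, overlapped, with 24.2 and 22.7 FPKM after 7 cycles against 17.8, 20.8 and 27.2 FPKM after 4 cycles. The 19 solved members summed to 660.3 and 706 FPKM after 7 cycles, against 399, 463 and 569 FPKM after 4 cycles. Epcam, Cdh1 and Cldn4, which mark epithelial cells, were thus present in every pool of both groups. RNA of carcinoma cells and of other epithelium was not told apart. Further epithelial genes outside the list, picked after their values were seen, were the growth factor binding protein gene Fgfbp1 (17.7 and 18.9 FPKM against 4.205, 6.44 and 9.19 FPKM) and the calcium-binding protein gene S100a14 (20.8 and 34.5 FPKM against 5.59, 10.2 and 13.7 FPKM). Csn3, the milk protein kappa-casein, was past 2-fold at 12.5 and 6.84 FPKM against 3.91, 4.13 and 3.87 FPKM, while Csn2, beta-casein, was listed at 0 after 7 cycles.

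Genes of sterol synthesis were higher after 7 cycles, with tight pools. Cells make cholesterol from acetyl-CoA through mevalonate and squalene, and the transcription factor SREBP2, encoded by Srebf2, switches on most of these enzymes when membrane sterol is low. Many of its target promoters also hold a CCAAT box, which binds the factor NF-Y. The letters CCAAT were searched on both strands in the 250 bases before the start. They occur in 33.8% of 32851 RefSeq promoters (GRCm38.p6) and in 11 of the 14 sterol and fatty acid genes with a sequence. A listed gene counted if any of its promoters held the letters, while the share over all is per promoter. These counts are thus not alike. TCACNCCAC, a form of the sterol regulatory element, occurs in 1.05% of promoters and in 0 of those 14. The 250 bases before the start of 4 genes called higher over the 13 pools are shown, with CCAAT or its complement in capitals, for Idi1 (chr13:8885356-8885605, plus strand), Insig1 (chr5:28071162-28071411, plus), Cyp51 (chr5:4104698-4104947, minus) and Srebf2 (chr15:82147019-82147268, plus).
Idi1: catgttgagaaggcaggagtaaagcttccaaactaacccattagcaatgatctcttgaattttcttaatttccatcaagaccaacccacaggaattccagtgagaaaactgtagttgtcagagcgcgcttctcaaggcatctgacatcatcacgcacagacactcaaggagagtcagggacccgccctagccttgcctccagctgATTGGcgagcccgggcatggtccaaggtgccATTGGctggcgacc
Insig1: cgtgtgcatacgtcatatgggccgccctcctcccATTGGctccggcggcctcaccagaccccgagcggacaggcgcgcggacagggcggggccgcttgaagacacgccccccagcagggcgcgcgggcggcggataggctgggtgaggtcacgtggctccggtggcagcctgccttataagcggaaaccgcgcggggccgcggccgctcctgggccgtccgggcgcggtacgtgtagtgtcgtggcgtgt
Cyp51: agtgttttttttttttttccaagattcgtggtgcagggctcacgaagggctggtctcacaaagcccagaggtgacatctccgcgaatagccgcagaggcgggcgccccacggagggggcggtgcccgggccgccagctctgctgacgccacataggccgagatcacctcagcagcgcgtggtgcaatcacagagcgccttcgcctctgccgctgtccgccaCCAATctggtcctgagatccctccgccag
Srebf2: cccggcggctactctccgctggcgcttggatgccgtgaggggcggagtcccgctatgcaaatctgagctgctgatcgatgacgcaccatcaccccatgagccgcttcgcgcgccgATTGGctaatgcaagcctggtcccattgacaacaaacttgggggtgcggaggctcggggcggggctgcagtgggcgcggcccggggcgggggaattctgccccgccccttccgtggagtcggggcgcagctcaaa
Idi1 holds 2 such boxes and the other promoters hold 1 each in these bases.

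Of 22 compared sterol and fatty acid genes 17 had a ratio above 0, with a median log2 ratio of 0.31, and 3 were at least 2-fold higher (1.21% of all genes were). Pools did not overlap in 13 genes upward and 1 downward of 20 with solved pools, beside 15.1% and 25.0% of all solved genes. Idi1, isopentenyl diphosphate isomerase, had 5.99 and 7.33 FPKM after 7 cycles, against 2.88, 2.75 and 2.99 FPKM after 4 cycles. Insig1, the sterol-regulated retention protein that holds back SREBP processing, had 10.4 and 9.74 FPKM after 7 cycles, against 5.60, 5.25 and 4.87 FPKM after 4 cycles. Cyp51, lanosterol demethylase, had 4.18 and 5.22 FPKM after 7 cycles, against 2.26, 1.71 and 2.20 FPKM after 4 cycles. In each gene the 4-cycle pools lay close together and both 7-cycle pools were above them. The log2 differences were 1.18 ± 0.13 for Idi1, 0.93 ± 0.11 for Insig1 and 1.15 ± 0.17 for Cyp51 (SE, n = 2 and 3 pools), with limma adjusted p-values of 0.0660, 0.0740 and 0.0740 over the 5 pools.

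Srebf2 had 8.13 and 8.34 FPKM after 7 cycles, against 5.68, 6.18 and 5.81 FPKM after 4 cycles. Fdft1, the enzyme that makes squalene, and Sqle, which oxidizes it, had log2 ratios of 0.77 and 0.69, and Fdps 0.87. Over the 13 pools 9 of 20 tested genes of the list, among them Idi1, Insig1, Cyp51, Srebf2, Sqle, Fdft1 and Fdps, were called higher (0.873% of all tested genes were), at limma adjusted p-values from 0.00632 for Idi1 (0.00391 to 0.106 over the 8 other settings) to 0.0497 for Srebf2 (0.0386 to 0.335). With 1 7-cycle pool left, the median log2 difference over the 9 was 0.66 without pool B and 0.89 without pool A, against 0.84 with all pools. Of the 9, 4 were called without 4-cycle pool A, 7 without 4-cycle pool B and 4 without 4-cycle pool C. Of the 50-base stretches of Idi1, 21.3% occur in other transcripts, mostly pseudogenes, and for Cyp51 the share was 0.155%.

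Further members, grouped by role after their values were seen, had smaller ratios. Among sterol enzymes Mvd and Mvk had log2 ratios of 0.31 each, Lss 0.16, Sc5d 0.12 and Dhcr7 −0.08. Among genes of fatty acid synthesis Fasn, fatty acid synthase, had a log2 ratio of −0.07, Acly −0.17, Acaca −0.24 and Scd1 −0.03, while Elovl6 had 0.35 and Scd2 0.29, and Srebf1 had 0.15 with overlapping pools. In vehicle pools Idi1 had 8.42, 11.0 and 9.13 FPKM and Insig1 10.7, 11.4 and 12.4 FPKM, so both 7-cycle pools lay between the 4-cycle and the vehicle levels.

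**Figure D5:**
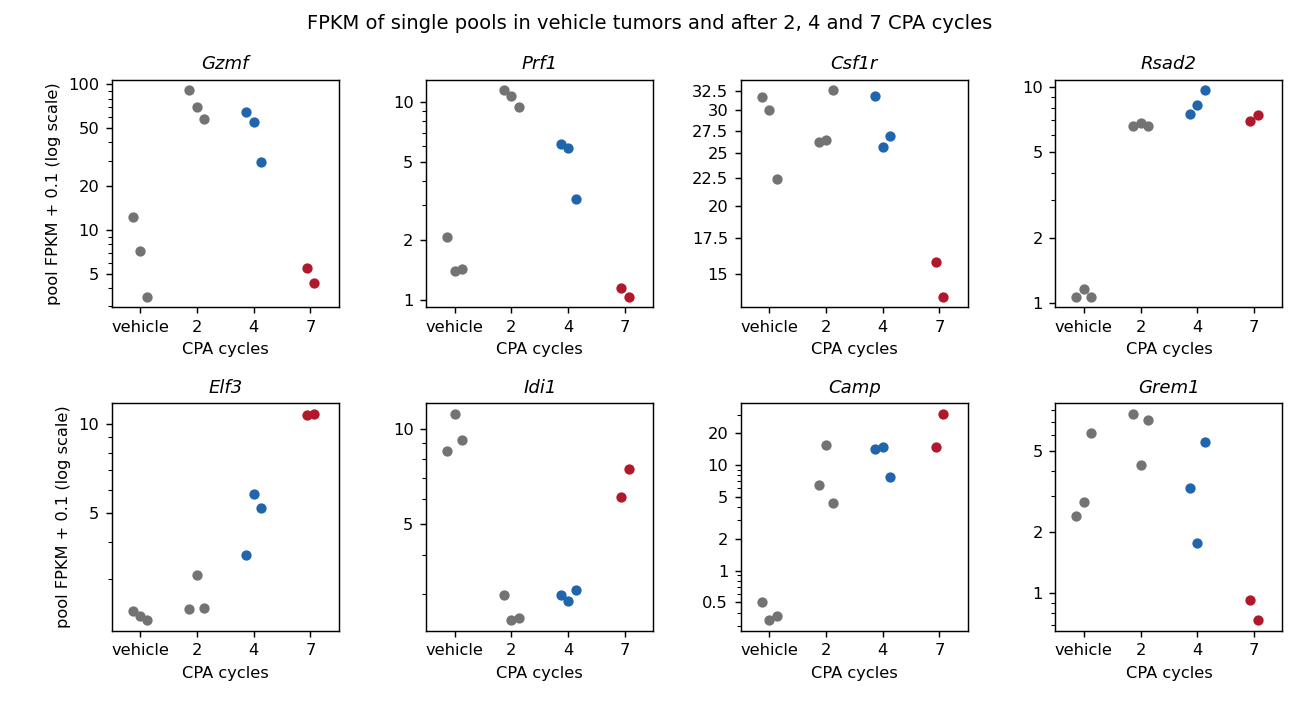
Each panel gives pool FPKM + 0.1 of 1 gene (vertical axis, log scale) in the vehicle pools and after 2, 4 and 7 CPA cycles (horizontal axis), 1 point per pool. Gzmf and Prf1 are high after 2 and 4 cycles and near vehicle after 7, Rsad2 is at like levels after 2, 4 and 7 cycles, Idi1 is low after 2 and 4 cycles, and Elf3 is highest after 7.

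Fibrillar collagen and fibroblast genes were lower after 7 cycles in 21 of 25 compared members, with a median log2 ratio of −0.51. Past 2-fold lower was 1 (0.953% of all compared genes were). Col1a1, the main chain of type I collagen, had group values of 76.5 FPKM after 7 cycles and 155 FPKM after 4 cycles (log2 ratio −1.02), and its 7-cycle pools had 57.1 and 96.0 FPKM, while the 4-cycle pools were not solved. Col6a3, a chain of type VI collagen, had 2.47 and 3.09 FPKM after 7 cycles, against 5.09, 3.52 and 6.11 FPKM after 4 cycles, and Bgn, the matrix proteoglycan biglycan, had 28.0 and 34.7 FPKM against 53.1, 43.4 and 68.7 FPKM. Acta2, smooth muscle actin of activated fibroblasts, had 5.42 and 7.56 FPKM against 10.6, 8.60 and 13.2 FPKM. Pools did not overlap in 7 of 18 solved members downward and in 1 upward, beside 25.0% and 15.1% of all solved genes, and no member was called over the 13 pools. Members above 0 were Dcn (0.25), S100a4 (0.31), Lox (0.38) and Dpt (0.42). Mmp2, a gelatinase of stromal cells, had 9.70 and 13.6 FPKM after 7 cycles against 19.4, 14.4 and 28.3 FPKM after 4 cycles, and Timp1, a metalloproteinase inhibitor, was equal at 41.2 FPKM and 41.1 FPKM as group values.

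Tgfbi, a matrix protein induced by TGF beta, was among the tightest differences, with 33.1 and 32.5 FPKM after 7 cycles against 59.3, 55.9 and 54.2 FPKM after 4 cycles (log2 difference −0.78 ± 0.10, SE, limma adjusted p = 0.0740 over the 5 pools and 0.00910 over the 13, with 0.00476 to 0.161 over the 8 other settings of the 13-pool fit). Of 15 compared TGF beta and mesenchymal transition genes 14 had a ratio below 0 (median −0.23). Over the 13 pools 2 of 11 tested members were called lower (2.77% of all tested genes were). Grem1, a secreted BMP inhibitor of fibroblasts that was picked after its values were seen, had 0.827 and 0.636 FPKM after 7 cycles, against 3.20, 1.68 and 5.45 FPKM after 4 cycles. Endothelial genes had a median log2 ratio of −0.22 over 15 members, with 11 below 0, and Kdr, the main VEGF receptor, had 1.24 and 1.13 FPKM after 7 cycles against 1.76, 1.69 and 2.20 FPKM after 4 cycles.

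Hypoxia and glycolysis genes had ratios above 0 in 18 of 20 compared members, with a median log2 ratio of 0.34, none past 2-fold. Pools did not overlap in 10 of 15 solved members upward and in 2 downward, beside 15.1% and 25.0% of all solved genes. Bnip3, a mitophagy receptor induced by low oxygen, had 32.9 and 47.5 FPKM after 7 cycles, against 26.6, 24.3 and 27.3 FPKM after 4 cycles. Adm, adrenomedullin, had 7.53 and 8.51 FPKM against 5.42, 5.70 and 4.72 FPKM, whereas Vegfa, the endothelial growth factor, overlapped at 17.2 and 18.1 FPKM against 16.7, 16.5 and 18.5 FPKM. Subunits of oxidative phosphorylation had ratios above 0 in 20 of 24 members (median 0.17), and Ndufb9, of complex I, had 182 and 270 FPKM against 157, 142 and 168 FPKM.

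Cell cycle genes were slightly lower, with 25 of 29 members below 0 and a median log2 ratio of −0.20. Of all compared genes, 41.6% had a ratio above 0. Mki67, the proliferation marker, had group values of 11.3 FPKM after 7 cycles and 12.2 FPKM after 4 cycles. Over the 13 pools 1 of 27 tested members was called lower, near the 2.77% of all tested genes that were. Rrm2, the ribonucleotide reductase subunit of S phase, was the member called lower over the 13 pools, at 10.6 and 9.81 FPKM against 18.5, 13.8 and 16.9 FPKM (limma adjusted p = 0.0483, and 0.0369 to 0.351 over the 8 other settings). Of 20 p53 target genes, 12 were below 0 (median −0.14). Cdkn1a, the cell cycle inhibitor p21, had 17.3 and 19.7 FPKM after 7 cycles, against 23.9, 22.5 and 26.0 FPKM after 4 cycles. Genes that repair crosslinks and alkylated bases had a median of −0.21 over 14 members and none was called. Genes that detoxify CPA had a median of 0.05 over 17 members, and 1 of 16 tested was called lower over the 13 pools (2.77% of all tested genes were). Among the detoxification genes Aldh3a1, which oxidizes an active CPA metabolite, had 1.43 and 1.25 FPKM against 0.883, 0.706 and 0.805 FPKM, and Abcb1b, an efflux pump of the multidrug resistance family, had 4.19 and 3.76 FPKM against 7.71, 5.50 and 5.75 FPKM and was called lower over the 13 pools (limma adjusted p = 0.0390, and 0.0295 to 0.332 over the 8 other settings).

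Other tissue lists varied within groups rather than between them. Adipocyte genes, which mark the fat pad, summed to 85.9 and 266 FPKM after 7 cycles, against 105, 125 and 255 FPKM after 4 cycles, and erythroid genes, which mark blood, summed to 306 and 299 FPKM against 165, 123 and 420.3 FPKM. In 7-cycle pool B muscle, adipocyte and granule sums were all above those of pool A. In both 7-cycle pools the cytotoxic and macrophage sums were below those of all 4-cycle pools, and the epithelial and sterol sums were above them. The part of muscle, skin, fat, liver or blood RNA in the differences of the other gene lists was not tested. Lists near the median of all genes were the immediate early genes (9 of 15 members above 0, median log2 ratio 0.06) and the heat shock and ER stress genes (10 of 17 below 0, median −0.06). Inflammatory cytokine and chemokine genes had a ratio below 0 in 17 of 24 compared members (median −0.32), with 1 past 2-fold lower (0.953% of all compared genes were). Matrix protease and inhibitor genes had one in 15 of 19 (median −0.24). Housekeeping genes had a median log2 ratio of 0.02 over 15 members, and 1 of 5 tested was called lower over the 13 pools (2.77% of all tested genes were).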

How the data were processed

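Per the labels, RNA of 2 to 3 4T1 tumors was pooled for each of 13 libraries. Of the tools, TopHat2, featureCounts and edgeR are named in the submitters' processing notes, with mouse build mm9, and their versions were not given in the sources used here. From these, the authors computed the deposited FPKM values, 1 per gene and group. Of 22 columns, 15 were not used, among them the authors' own ratios, fold changes and p-values for each CPA group against vehicle. Of 24197 rows, 27 held a date in place of a symbol and were dropped, and 23251 of the remaining 24170 symbols matched the reference gene tables. Coordinates of genes are those of the table (mm9), and promoters are from RefSeq (GRCm38.p6).

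Group values were compared as log2 ratios after adding 0.1 FPKM, among genes with a mean of both groups of at least 1 FPKM, and a 2-fold difference was counted with no test. This was the planned comparison. Reads per pool were recovered after the data had been seen, by finding for each group the scaling numbers and for each gene the length that turn all printed decimals into a mean of whole reads. Among 400 genes tried, 358 gave whole reads with the scaling numbers as found and 0 with other numbers. Among 1183 genes with 1 annotated transcript length, that length was a whole multiple of the solved length in 373, against 14 for the length plus 1. Pool letters follow the scaling numbers and tie no pool to a sample, and 4-cycle values above 30000 reads in the group were not solved.

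Pools were compared with limma 3.58.1 in R 4.3.3 (trend on mean log2 FPKM, Benjamini-Hochberg adjustment), first over the 5 pools of both groups and then over all 13 pools (vehicle, 2, 4 and 7 cycles, and tumors regrowing for 18 days after 4 cycles), which assumes that the 5 groups vary alike. The limma fits, their settings and the leaving out of single pools were all added after the data had been seen. Other pseudocounts, minimums, folds and scalings of the group comparison were planned. Scripts ran in Python 3.11.15 with numpy 2.4.6, pandas 2.3.3 and numba 0.67.0, and the fits and the recovery of reads were tested on simulated data.

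The genes and the 37 gene lists were chosen with earlier results of these data known, so a count over a list is a description. Named genes were the 15 largest and 15 smallest log2 ratios, the 14 PCR genes of the study, and in each list its defining genes and up to 4 further members with the largest differences. Others are named as picked after their values were seen. The unit the authors counted was not stated, so recovered reads may not be independent fragments. An FPKM value of a low gene rests on few reads, and no interval for counting error was computed. Some members of the sterol list are not reported here by name.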

Additional observations from a re-analysis of the deposited data

How the results depend on the processing

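The planned counts of 138 genes at least 2-fold higher and 109 lower moved with the settings. They were 85 and 54 with 1 FPKM added, 430 and 347 with no minimum, 66 and 55 with at least 1 FPKM in both groups, 50 and 28 with a mean of at least 5 FPKM, 373 and 600 at a fold of 1.5, and 66 and 43 at a fold of 3. Rescaling to the same FPKM sum gave 121 and 169, and centring on the median 153 and 90, so that the share of higher genes was 41.7% and 63.0% against 55.9%. Leaving out 1 pool gave 64 to 192 higher genes, lowest without 7-cycle pool B and highest without 7-cycle pool A, and 106 to 241 lower genes, lowest without 4-cycle pool A and highest without 7-cycle pool A. The cause of these movements was not tested.

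The limma fit over 5 pools called 0 genes in either direction, also with voom and with 1 FPKM added, and 19 higher and 72 lower with the spread fitted on reads. Leaving out 1 pool gave 0 to 108 higher and 0 to 107 lower genes, highest without 7-cycle pool A, with 1 higher and 6 lower without 4-cycle pool C. The fit over 13 pools called 92 and 292, and leaving out 1 pool gave 0 to 292 higher and 0 to 636 lower genes, lowest without 7-cycle pool B and highest without 7-cycle pool A. The 7-cycle arm then held 1 pool, which was assumed to vary like the others. Krt1 was the named gene whose direction reversed, since the log2 of Krt1 was −0.0503 without 7-cycle pool A and 5.84 without pool B. No paired analysis was possible because the recovered pools carry no replicate number. Single genes near 0.1 FPKM are limited by depth, since 1 read in a gene of 1 kb is worth 0.0165 to 0.0244 FPKM.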

Other observations

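Gene families outside the lists were looked at after their values had been seen, so that the counts are descriptions. Genes of the cytosolic ribosome, whose proteins build the subunits that translate mRNA, had a ratio above 0 in 76 of 77 compared members, with a median log2 ratio of 0.41 and none past 2-fold. Both 7-cycle pools were above all 4-cycle pools in 17 of the 19 members with solved pools (15.1% of all solved genes). Mitochondrial ribosomal protein genes had a ratio above 0 in 63 of 74 members, with a median of 0.15, and proteasome subunits in 30 of 37, with a median of 0.09. Median log2 ratio over all compared genes was −0.06, and 41.6% of them lay above 0.

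Toll-like receptor genes, which encode sensors of microbial products on myeloid cells, had a ratio below 0 in 7 of 8 members, with a median log2 ratio of −0.68. Of the 8, 2 were at least 2-fold lower (0.953% of all compared genes were), and 5 were called lower by limma over the 13 pools (2.77% of all tested genes were), a fit that called 0 genes without 7-cycle pool B, with 1 pool left in that group. Tlr8, a receptor for single-stranded RNA, had 0.680 and 0.420 FPKM in 7-cycle pools A and B, against 1.90, 1.48 and 1.97 FPKM in 4-cycle pools A, B and C.

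Further myeloid genes outside the lists were picked because their 7-cycle pools lay below all 4-cycle pools, as in 25.0% of all solved genes, and so are no sample of myeloid genes. The neutrophil genes S100a8 and BC100530 lay the other way, with S100a8 at 156 and 244 FPKM after 7 cycles against 140, 131 and 109 FPKM after 4 cycles. Clec7a, the beta-glucan receptor dectin-1, had 9.36 and 7.88 FPKM after 7 cycles, against 22.3, 17.1 and 26.5 FPKM after 4 cycles. Siglec1, a sialic acid receptor of macrophages, had 2.598 and 1.41 FPKM after 7 cycles, against 5.32, 5.45 and 4.71 FPKM after 4 cycles. Mpeg1, a pore-forming protein of macrophages, had 18.9 and 12.2 FPKM after 7 cycles, against 32.8, 29.7 and 33.8 FPKM after 4 cycles. Syk, a kinase that acts below dectin-1 and Fc receptors, had 2.96 and 2.88 FPKM after 7 cycles, against 6.03, 5.08 and 6.04 FPKM after 4 cycles. Ctsc, the protease that removes the activation peptide of granzymes, had 43.1 and 29.6 FPKM after 7 cycles, against 87.1, 73.8 and 66.3 FPKM after 4 cycles. That the highest 7-cycle pool was below the lowest 4-cycle pool in each of these 5 genes follows from how they were picked.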
